A study of Rattus norvegicus with 59 samples.

Results

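Genes of the MHC class I pathway were described in the brains of 2 inbred rat lines selected for alcohol drinking. The set holds 9 genes: the class I heavy chains RT1-A, RT1-CE16 and RT1-CE12, the light chain B2m, the immunoproteasome subunits Psmb8 and Psmb9, the peptide transporters Tap1 and Tap2, and the class II chaperone Cd74. All probe sets whose only symbol in the array annotation was one of these genes were taken, which gave 14 of 8799 probe sets. The set is thus 9 of 4736 genes with a single-symbol probe set. Of the 14, 8 passed the filter on dim probe sets and were tested, 1 for each gene except Psmb9. The other 6 were both Psmb9 probe sets, 1 of Tap1 and 3 of Cd74, and their values are given without calls. The tested Cd74 probe set passed through its brightest samples: its mean log2 signal was 8.21 in iP rats and 7.43 in iNP rats, where the filter lay at 7.65. A further 4 probe sets carry a member among several symbols, and 2 of these were tested.

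Class I molecules carry short peptides to the cell surface, where CD8 T cells and natural killer cells read them. The proteasome cuts the peptides, the TAP1 and TAP2 pair pumps them into the endoplasmic reticulum, and there they join a heavy chain and beta-2-microglobulin. Interferon gamma induces most of these genes, and the rat complex is named RT1. In brain tissue, microglia and vessel cells carry class I molecules, and in mice neurons use them in shaping synapses.

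Total RNA was measured on a rat Affymetrix expression array in nucleus accumbens, amygdala, hippocampus, striatum and frontal cortex (5 regions). The alcohol-preferring rats were of the inbred line iP (iP5C in the design text, animals 1 to 6), and the non-preferring rats were of the inbred line iNP (iNP1, animals 7 to 12). All were adult males, and RNA of each dissected region was hybridised rat by rat. The 59 arrays comprise 6 rats per line in each region except cortex, where 5 iP rats were used (animal 6 is not analysed here). Each line is a single inbred strain, so drinking preference cannot be told apart from any other fixed difference between these strains. An array signal also depends on how well a transcript pairs with its probes, and RT1 genes differ greatly between strains. RNA amount and a difference in sequence under the probes cannot be told apart here, nor can RT1 genes that share probes. In whole tissue, fewer cells of a type and less RNA per cell cannot be told apart either.

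Signals are in the authors' arbitrary linear units, scaled so that the trimmed mean was 1000 on every array. Array medians ran between 251 and 391. There is no read depth on an array; precision is limited by how many rats were measured. Differences are iP minus iNP on the log2 scale, and a call is a Benjamini-Hochberg adjusted p under 0.05 from limma over all 5244 tested probe sets. In earlier results of these data, cortex of iP animal 5 and amygdala of iP animal 1 stood apart from their groups. Calls that changed without them are given beside the result.

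Promoter windows of 300 bases (250 before the RefSeq start and 50 after it, build GRCr8) were found for 8 of the 9 genes. The windows of the called members with an entry are shown because class I genes are known to be induced through short response elements near their start. Capitals mark matches on either strand to the core of the interferon-stimulated response element (GAAANNGAAA), the interferon gamma activated site (TTCNNNGAA), the cyclic AMP response element core (TGACG) and the NF-kappa-B site of the class I enhancer A (GGGGATTCCC). Each is written 5′ to 3′ along the gene's strand.
RT1-CE16 (chr20:3265394-3265693, minus strand): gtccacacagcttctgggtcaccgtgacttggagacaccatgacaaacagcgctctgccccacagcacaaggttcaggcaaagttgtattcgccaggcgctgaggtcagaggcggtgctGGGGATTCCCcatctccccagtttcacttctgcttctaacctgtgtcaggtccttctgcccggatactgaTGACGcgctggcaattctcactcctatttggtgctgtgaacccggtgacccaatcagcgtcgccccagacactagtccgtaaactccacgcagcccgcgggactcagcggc
RT1-CE12 (chr20:3347176-3347475, minus strand): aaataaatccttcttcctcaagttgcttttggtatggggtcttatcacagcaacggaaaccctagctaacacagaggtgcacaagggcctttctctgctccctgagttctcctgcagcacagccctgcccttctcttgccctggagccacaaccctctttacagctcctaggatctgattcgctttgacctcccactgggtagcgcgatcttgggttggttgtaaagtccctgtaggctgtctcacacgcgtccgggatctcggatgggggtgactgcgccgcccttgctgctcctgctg
B2m (chr3:129549080-129549379, plus strand): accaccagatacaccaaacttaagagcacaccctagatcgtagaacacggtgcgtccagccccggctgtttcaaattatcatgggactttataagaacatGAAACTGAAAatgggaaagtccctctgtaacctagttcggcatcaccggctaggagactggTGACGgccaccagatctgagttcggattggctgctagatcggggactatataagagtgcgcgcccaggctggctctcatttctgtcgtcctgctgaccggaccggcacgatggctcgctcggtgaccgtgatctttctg
Psmb8 (chr20:4656982-4657281, minus strand): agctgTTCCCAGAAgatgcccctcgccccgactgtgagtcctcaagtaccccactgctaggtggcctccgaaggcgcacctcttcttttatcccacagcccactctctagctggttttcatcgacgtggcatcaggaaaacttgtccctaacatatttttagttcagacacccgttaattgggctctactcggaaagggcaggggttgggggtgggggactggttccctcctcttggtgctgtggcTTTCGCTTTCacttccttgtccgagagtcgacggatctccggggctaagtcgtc

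The interferon-stimulated core was found in the windows of B2m, Psmb8, Tap1 and Tap2, 4 of 8, and in 3.92% of all 33469 rat windows. In B2m it lies at bases 101 to 110 and in Psmb8, on the opposite strand, at bases 247 to 256. The interferon gamma activated site was found in Psmb8, 1 of 8, against 8.87% of all windows. The cyclic AMP core was found in RT1-CE16, B2m and Psmb9, 3 of 8, against 21.2% of all windows. The enhancer A site was found in RT1-CE16 at bases 120 to 129. It occurs in 38 windows of the table (0.114%), 8 of which carry a symbol starting with RT1. The RT1-CE12 window held none of the 4 motifs. Only exact matches to the 4 patterns were counted, so a window without a match may still hold a variant of an element. The Tap1 and Psmb9 windows share 44 bases, since these neighbours are read in opposite directions from a common stretch. These matches describe the reference strain and not the genomes of iP or iNP rats, whose sequences were not used here.

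Over all regions, the 3 class I heavy chains and B2m were lower in iP rats and Psmb8 was higher. Tap1, Tap2 and Cd74 did not pass the test. Thus 5 of the 8 tested members were called, 4 lower and 1 higher in iP rats, against 2.65% of all tested probe sets called (1.45% lower and 1.2% higher in iP). In the same 5 members the 6 iP rats and the 6 iNP rats did not overlap in their means over regions, against 2.86% of all tested probe sets. The median difference of the 8 members was -0.26, beside -0.01 over all tested probe sets. The members were chosen with earlier results of these data known, so these counts and this median do not test whether the set stands apart. The probe sets of the 3 heavy chains may also read the same transcripts, so they are not separate counts. The line difference was not called to vary between regions for any member (line by region F test in limma, adjusted p = 0.956 for all 8). No probe set of the array was called in that test (0% of those tested), with 242 at an unadjusted p under 0.05.

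**Figure D1:**
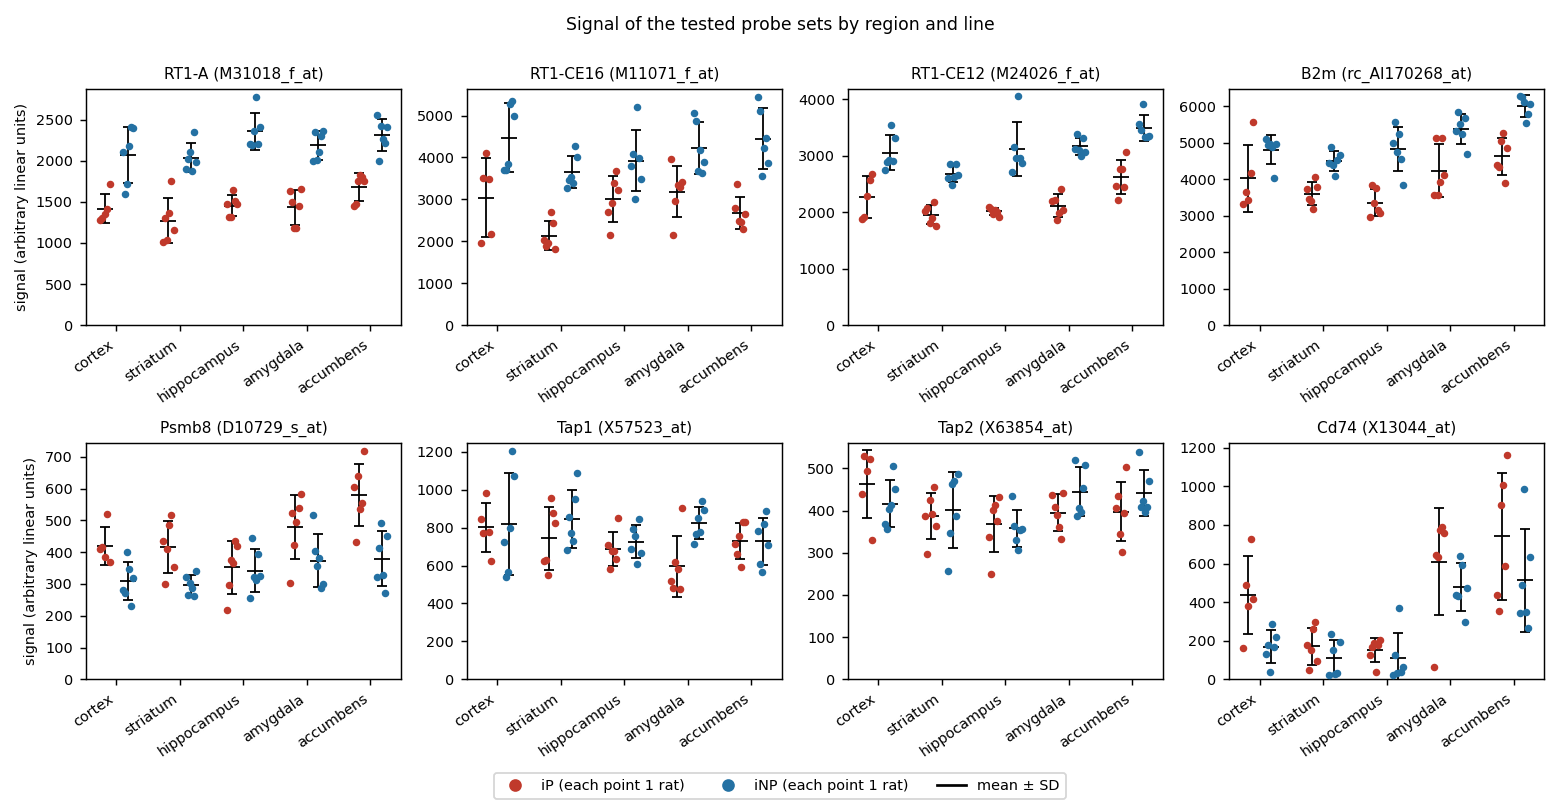
Signal (linear units) of the 8 tested probe sets in each region. Each point is 1 rat, with iP left of iNP, and bars give the mean ± SD (n = 6 rats per line, 5 for iP in cortex). The iP points of RT1-A lie below the iNP points in all regions but cortex, where 1 iP array reaches into the iNP range, and the Psmb8 points of iP lie higher on average in every region.

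RT1-A, the classical class I heavy chain, was measured by probe set M31018_f_at. The suffix _f marks a probe set that the manufacturer designed against a family of similar sequences. Averaged over regions (a geometric mean per rat with region levels evened out, as for every value over regions below), its signal was 1312, 1429 and 1647 in iP rats (lowest, median and highest rat), against 2024, 2190.4 and 2316 in iNP rats. The 2 lines were fully separate. The difference was -0.60 ± 0.06 (SE, limma, adjusted p = 1.58e-05), a signal 0.658 times that of iNP rats. 

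By region, the RT1-A signal in striatum was 1009.6, 1226 and 1751 in iP rats, against 1872, 2006 and 2345 in iNP rats. In hippocampus it was 1312, 1473 and 1642 in iP rats, against 2198, 2281 and 2779.8 in iNP rats. The highest iP rat stayed below the lowest iNP rat in both regions, by a wide margin in hippocampus. In amygdala it was 1179, 1477 and 1663 in iP rats, against 1991.5, 2204 and 2363 in iNP rats. In accumbens it was 1445, 1755 and 1829 in iP rats, against 2002, 2341 and 2559 in iNP rats. These groups did not overlap either. In cortex it was 1280.1, 1354 and 1719 in iP rats, against 1591, 2148 and 2406 in iNP rats. The cortex groups overlapped, and the highest iP value is that of animal 5, which stood apart. The difference was called in striatum (-0.71 ± 0.12, limma adjusted p = 0.0084), hippocampus (-0.70 ± 0.09, adjusted p = 0.000618), amygdala (-0.62 ± 0.11, adjusted p = 0.0127) and accumbens (-0.47 ± 0.10, adjusted p = 0.0417). In cortex it was -0.54 ± 0.14 and not called (limma adjusted p = 0.284). It was called there in a joint fit of all arrays with a replicate block by rat (-0.54, limma adjusted p = 0.00248) and with array weights (-0.66, adjusted p = 0.00808). The accumbens call was lost in 10 of 12 fits that left out 1 rat, namely iP animals 1, 2, 3, 5 and 6 and iNP animals 7, 9, 10, 11 and 12 (adjusted p between 0.0587 and 0.133).

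RT1-CE16, a heavy chain gene of the RT1-CE region, was measured by M11071_f_at. Over regions its signal was 2528.5, 2733 and 3053 in iP rats, against 3524, 4193 and 4406 in iNP rats. No iP rat reached the iNP range. The difference was -0.58 ± 0.06 (limma adjusted p = 2.53e-05), 0.668 times the iNP signal. In striatum the signal was 1811, 2001 and 2694 in iP rats, against 3274, 3501.5 and 4267 in iNP rats. In accumbens it was 2294, 2568 and 3365 in iP rats, against 3562, 4342 and 5441 in iNP rats. Both regions were called without overlap, at -0.78 ± 0.11 in striatum (limma adjusted p = 0.000881) and -0.73 ± 0.12 in accumbens (adjusted p = 0.00774). In hippocampus the signal was 2143.5, 3063 and 3673 in iP rats, against 3015, 3884 and 5192 in iNP rats. In amygdala it was 2151, 3313 and 3955 in iP rats, against 3618, 4041 and 5072 in iNP rats. The cortex signal was 1952, 3486 and 4110.3 in iP rats, against 3690.2, 4422.5 and 5355 in iNP rats. The lines overlapped in these 3 regions, and the differences of -0.39 ± 0.14, -0.42 ± 0.14 and -0.60 ± 0.21 were not called (limma adjusted p = 0.492, 0.343 and 0.699). The cortex difference was called in the joint fit (-0.60, limma adjusted p = 0.0427).

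RT1-CE12, a further RT1-CE heavy chain gene, was measured by M24026_f_at. Over regions its signal was 2102, 2139 and 2343 in iP rats, against 2939, 3065 and 3286 in iNP rats. The difference of -0.50 ± 0.04 had the smallest standard error of the 8 members (limma adjusted p = 5.07e-06). RT1-CE12 was the one member whose lines did not overlap in any of the 5 regions. In hippocampus the signal was 1913, 2027 and 2101 in iP rats, against 2719.6, 2959 and 4064 in iNP rats. In amygdala it was 1857, 2115 and 2416.5 in iP rats, against 2995, 3112 and 3392.5 in iNP rats. In striatum it was 1761, 1959 and 2184 in iP rats, against 2488.5, 2643 and 2856 in iNP rats. These 3 regions were called, at -0.62 ± 0.09 (limma adjusted p = 0.003), -0.58 ± 0.08 (adjusted p = 0.002) and -0.46 ± 0.08 (adjusted p = 0.00619). In accumbens it was 2210.4, 2614 and 3061 in iP rats, against 3326, 3409 and 3913 in iNP rats. The cortex signal was 1878, 2294 and 2686.5 in iP rats, against 2747, 2926 and 3555 in iNP rats. The differences there, -0.42 ± 0.09 and -0.44 ± 0.12, were not called (limma adjusted p = 0.067 and 0.368). Both were called in the joint fit (limma adjusted p = 0.00208 in accumbens and 0.00191 in cortex) and with array weights (-0.45 and -0.53, adjusted p = 0.0267 and 0.0407). The accumbens difference was also called without the filter (adjusted p = 0.0473) and without iP animal 6 (-0.47, adjusted p = 0.0353).

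B2m, the light chain that every class I molecule shares, lies on another chromosome (3) than the RT1 genes (20). Its probe set rc_AI170268_at gave 3570, 3953 and 4285 over regions in iP rats, against 4799, 5049 and 5478 in iNP rats. The lines did not overlap, and the difference was -0.37 ± 0.05 (limma adjusted p = 0.000433), 0.772 times the iNP signal. In hippocampus the signal was 2952, 3258.5 and 3842 in iP rats, against 3837, 4876 and 5579 in iNP rats. There it was called (-0.52 ± 0.10, limma adjusted p = 0.0217), although the highest iP rat just passed the lowest iNP rat. This call was lost in 7 of 12 fits without 1 rat, namely without iP animals 1, 3, 5 and 6 and iNP animals 7, 8 and 10 (adjusted p between 0.0535 and 0.0725). In striatum the signal was 3179, 3594 and 4069 in iP rats, against 4081, 4486 and 4868 in iNP rats. In accumbens it was 3894, 4618 and 5259 in iP rats, against 5527, 6096 and 6272 in iNP rats. The lines were separate in these 2 regions, yet the differences of -0.32 ± 0.08 and -0.38 ± 0.09 missed the threshold (limma adjusted p = 0.0767 and 0.0813). They were called without iP animal 5 in striatum (-0.36, adjusted p = 0.0396) and without iP animal 4 in accumbens (-0.42, adjusted p = 0.04). The accumbens difference was also called in the joint fit (-0.38, limma adjusted p = 0.0323), with array weights (-0.41, adjusted p = 0.0301) and after quantile normalization (-0.43, adjusted p = 0.0331). In amygdala it was 3559.5, 4023 and 5134 in iP rats, against 4689, 5416 and 5853 in iNP rats. The cortex signal was 3324, 3645 and 5566 in iP rats, against 4036, 4942 and 5113 in iNP rats. The lines overlapped in both (-0.36 ± 0.11 and -0.28 ± 0.13, limma adjusted p = 0.27 and 0.85), and the cortex array of iP animal 5 was the highest of its region.

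By region, no member was called in cortex, where 0.229% of all tested probe sets were called. Members called in striatum numbered 3, against 0.839% of all tested probe sets. In hippocampus 3 members were called against 0.667%, in amygdala 2 against 0.725%, and in accumbens 2 against 0.572%. All 10 of these calls were heavy chains or B2m and all were lower in iP rats. Since the members were chosen with earlier results of these data known, these counts do not test the set either. These counts depend on the fit: with array weights 2 members were called in cortex and 4 in accumbens, and in the joint fit 3 in cortex and 4 in accumbens.

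**Figure D2:**
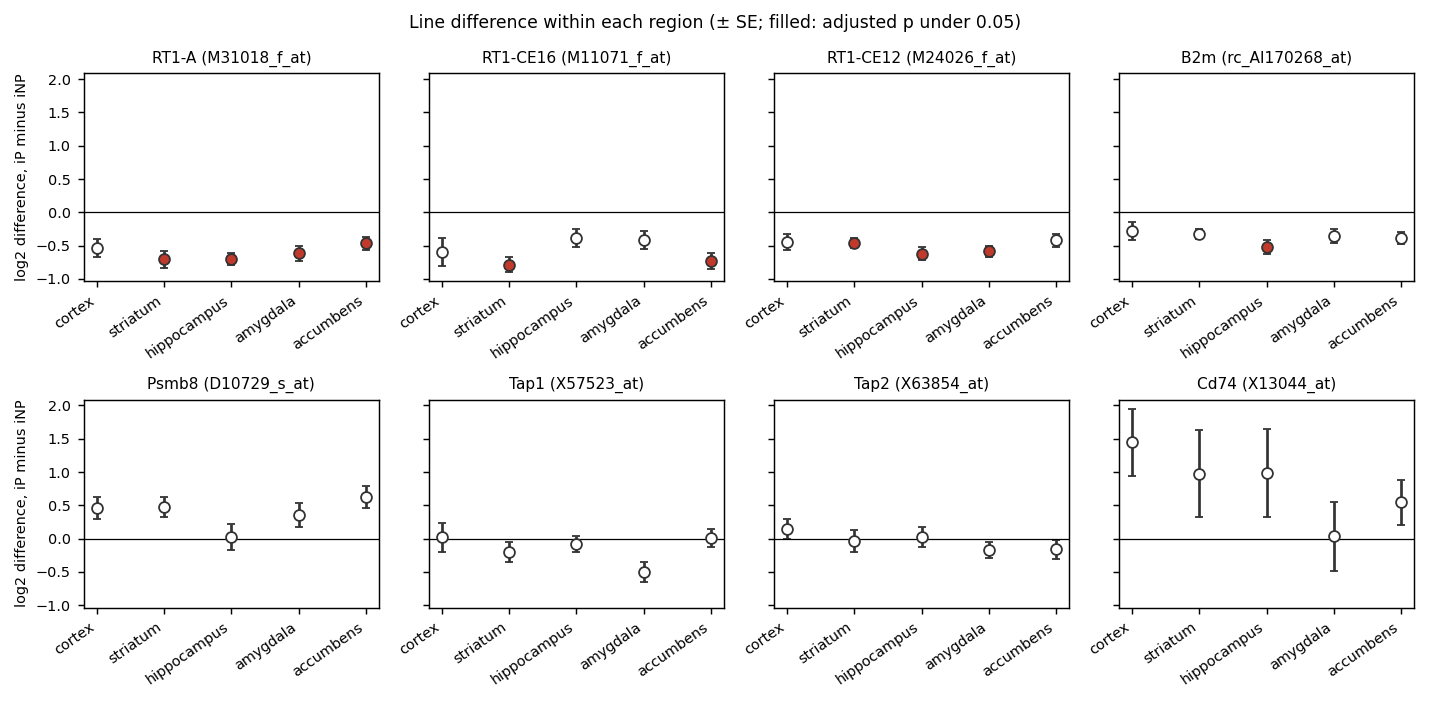
Log2 difference, iP minus iNP, of the 8 tested probe sets within each region (points, with SE bars; filled points have an adjusted p under 0.05). The heavy chains and B2m lie below 0 in all 5 regions, with 10 filled points between -0.78 and -0.46.

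Psmb8 encodes the interferon-inducible beta5i subunit of the immunoproteasome and was measured by D10729_s_at. Over regions its signal was 371, 456 and 489.5 in iP rats, against 284, 336 and 368 in iNP rats. The lowest iP rat lay just above the highest iNP rat. The difference of 0.39 ± 0.09 was called (limma adjusted p = 0.0278), 1.31 times the iNP signal. The call was lost in 8 of 12 fits without 1 rat, namely without iP animals 3, 4, 5 and 6 and iNP animals 7, 10, 11 and 12 (adjusted p between 0.0539 and 0.0823). In accumbens the signal was 433, 578 and 717 in iP rats, against 271, 371 and 492 in iNP rats. The cortex signal was 368, 409.9 and 521 in iP rats, against 231, 299.6 and 399 in iNP rats. In striatum it was 298, 421 and 518 in iP rats, against 260.4, 295 and 341 in iNP rats. The lines overlapped in all 3, with differences of 0.63 ± 0.17, 0.46 ± 0.16 and 0.47 ± 0.15. In amygdala the signal was 303, 509 and 584 in iP rats, against 286, 369 and 515 in iNP rats. In hippocampus it was 217, 371 and 436 in iP rats, against 254, 323 and 446 in iNP rats. The lines overlapped in both, at 0.35 ± 0.18 in amygdala and 0.03 ± 0.19 in hippocampus. No single region was called (limma adjusted p between 0.194 and 0.985). The lowest amygdala value in iP rats was that of animal 1, which stood apart.

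Psmb9, the beta1i subunit that joins the immunoproteasome with Psmb8, had dim probe sets that were not tested. D10757_at gave 109, 136 and 152 over regions in iP rats, against 72.5, 97 and 123 in iNP rats. D10757_g_at gave 174, 193 and 233 in iP rats, against 86.8, 195 and 221.5 in iNP rats. Both overlapped between lines, and in a fit of all probe sets without the filter the differences were 0.46 ± 0.14 and 0.21 ± 0.20 (limma adjusted p = 0.179 and 0.781). Single regions did not go one way, from -0.40 for D10757_g_at in hippocampus to 0.99 for the same probe set in cortex. That cortex value includes an iNP array with a signal of 14.5, below the floor of 16.

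The peptide transporter genes did not pass the test. Tap1 (X57523_at) gave 616, 686 and 863 over regions in iP rats, against 691, 729 and 958 in iNP rats. Tap2 (X63854_at) gave 369, 395 and 439.8 in iP rats, against 371, 405 and 450.4 in iNP rats. The lines overlapped for both, at -0.14 ± 0.10 for Tap1 and -0.04 ± 0.07 for Tap2 (limma adjusted p = 0.609 and 0.888). In amygdala Tap1 had 475, 549 and 901 in iP rats, against 715, 814 and 939 in iNP rats. This was the widest gap of X57523_at (-0.50 ± 0.15, limma adjusted p = 0.27), and it was called without iP animal 6, the rat with the highest iP value (-0.63, adjusted p = 0.0241). The other 4 regions lay between -0.20 and 0.02 for X57523_at, and all 5 lay between -0.17 and 0.14 for Tap2. The dim second Tap1 probe set, X57523_g_at, gave 62.3, 74.9 and 86.2 over regions in iP rats, against 72.8, 102.6 and 123 in iNP rats (-0.47 ± 0.13, limma adjusted p = 0.148 without the filter). Its lines overlapped. 

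Cd74 is the invariant chain that escorts class II molecules. X13044_at gave 157, 354 and 396 over regions in iP rats, against 103, 195 and 255 in iNP rats. The lines overlapped, and the difference of 0.80 ± 0.27 was not called (limma adjusted p = 0.205). It was called without the 2 arrays that stood apart (0.90, adjusted p = 0.0445) and without iP animal 1 (0.98, adjusted p = 0.0432). The amygdala array of that rat read 62.6 where the other 5 iP arrays read 632 to 789. X13044_at would not have passed the filter on iNP rats alone, since its mean log2 signal there was 7.43, under 7.65. These calls of a line difference therefore support nothing by themselves. The other 3 Cd74 probe sets were below the filter. X13044_g_at gave 83.9, 186 and 291 over regions in iP rats, against 90.7, 120.1 and 138 in iNP rats. X14254cds_at gave 27.6, 44.9 and 57.5 in iP rats, against 24.3, 29.7 and 34.4 in iNP rats. X14254cds_g_at gave 110.7, 135 and 186 in iP rats, against 54.2, 81 and 113 in iNP rats. All 3 overlapped over regions, with differences of 0.60 ± 0.27, 0.57 ± 0.16 and 0.85 ± 0.20 (limma without the filter, adjusted p = 0.454, 0.148 and 0.0595). In cortex X14254cds_g_at gave 103 to 580 in iP rats and 42 to 83.3 in iNP rats, without overlap. The difference there was 1.76 ± 0.46 (limma adjusted p = 0.422 without the filter).

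**Figure D3:**
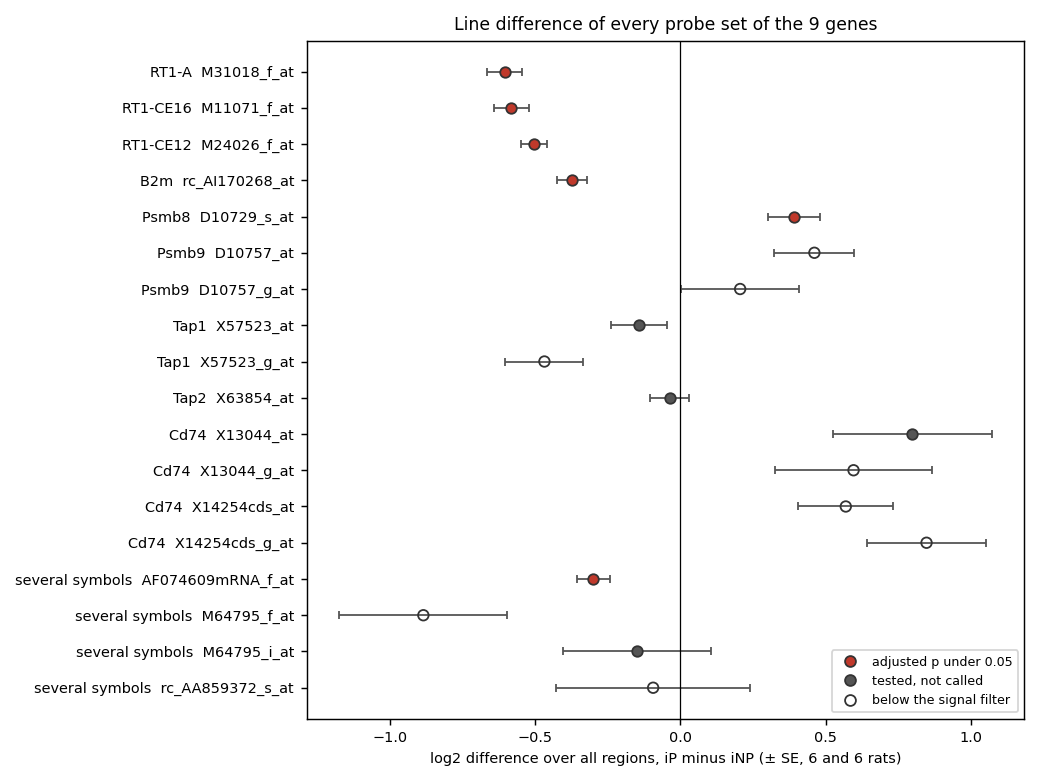
Log2 difference over all regions, iP minus iNP, for the 14 probe sets of the 9 genes and the 4 probe sets with several symbols (points, with SE bars, 6 rats per line). Filled red points have an adjusted p under 0.05, grey points were tested and not called, and open points were below the filter. The called RT1 and B2m probe sets lie between -0.60 and -0.30, and Psmb8 lies at 0.39.

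RT1 probe sets with several symbols gave mixed values. AF074609mRNA_f_at is annotated to RT1-A, RT1-CE16 and RT1-A1 together. It gave 846, 907 and 975 over regions in iP rats, against 1019, 1111 and 1250 in iNP rats. The lines did not overlap, and the difference was called (-0.30 ± 0.06, limma adjusted p = 0.00785). M64795_i_at, with the same 3 symbols, gave 296, 470.2 and 688 in iP rats, against 239, 503 and 785 in iNP rats. Its lines overlapped widely (-0.15 ± 0.26, limma adjusted p = 0.879). M64795_f_at was below the filter and gave 60.7, 81.5 and 109.99 in iP rats, against 84.7, 135 and 299 in iNP rats, with overlap (-0.88 ± 0.29, limma adjusted p = 0.238 without the filter). The dim probe set rc_AA859372_s_at names B2m among 6 symbols and gave -0.09 ± 0.33 (limma adjusted p = 0.964 without the filter), with overlap.

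Levels were also compared between regions. A region was contrasted with the average of the remaining 4, with the rat as a block, since the animal numbers in the titles tie the regions of a rat together. In striatum 5 of the 8 members were called, all lower, against 13.9% of all tested probe sets. They were RT1-A (-0.19 ± 0.06, limma adjusted p = 0.017), RT1-CE16 (-0.34 ± 0.09, adjusted p = 0.00479), RT1-CE12 (-0.22 ± 0.05, adjusted p = 0.000606), B2m (-0.18 ± 0.05, adjusted p = 0.0128) and Cd74 (-1.42 ± 0.31, adjusted p = 0.000852). In accumbens 5 members were called, all higher, against 20.9%. They were RT1-A (0.19 ± 0.06, limma adjusted p = 0.0101), RT1-CE12 (0.27 ± 0.05, adjusted p = 1.5e-05), B2m (0.30 ± 0.05, adjusted p = 1.73e-05), Psmb8 (0.34 ± 0.09, adjusted p = 0.00555) and Cd74 (1.63 ± 0.31, adjusted p = 7.36e-05). In hippocampus B2m (-0.19 ± 0.05, limma adjusted p = 0.00596) and Cd74 (-1.60 ± 0.31, adjusted p = 7.48e-05) were lower, 2 of 8 against 23.3%. In amygdala Cd74 alone of the 8 was called (1.32 ± 0.31, limma adjusted p = 0.00122), against 26.1%. In cortex no member was called, against 17%. Without the 2 arrays that stood apart, B2m was also called higher in amygdala (0.14, adjusted p = 0.0272) and Tap2 lower in hippocampus (-0.21, adjusted p = 0.0474). Tap1 was called in no region. The Cd74 probe set passed the filter only through its brightest samples. Its mean log2 signal was 7.48 without accumbens, 7.54 without amygdala and 7.43 without iP rats, all under 7.65. Its calls and its place in these counts therefore support nothing by themselves. Of the other 7 members, 4 were called in striatum, 4 in accumbens, 1 in hippocampus and none in amygdala or cortex. The members were chosen with earlier results of these data known, so these counts do not test the set. In the fit without the filter the Cd74 contrasts had limma adjusted p = 0.00155 in striatum, 0.000141 in accumbens, 0.000147 in hippocampus and 0.00217 in amygdala.

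The Cd74 values by region are given as levels. The X13044_at signal in accumbens was 356, 743 and 1163 in iP rats, against 268, 419 and 987 in iNP rats. In amygdala it was 62.6, 701 and 789 in iP rats, against 296, 455 and 638 in iNP rats. The 2 regions were not set against each other. In cortex it was 164, 418 and 727 in iP rats, against 37.3, 171 and 288 in iNP rats. In striatum it was 46.2, 167 and 296 in iP rats, against 24.6, 91.7 and 237 in iNP rats. In hippocampus it was 36, 173 and 203 in iP rats, against 24.8, 50.4 and 369.5 in iNP rats. The lines overlapped in every region, and a single iNP rat exceeded all iP rats in hippocampus. No line difference of X13044_at in a single region was called (limma adjusted p between 0.707 and 0.982), and its largest was 1.44 ± 0.50 in cortex. In amygdala it was 0.04 (limma adjusted p = 0.982), against 0.62 (adjusted p = 0.161) without the array of iP animal 1, neither of them called. The dim Cd74 probe sets had the same regions at the ends, with accumbens highest (mean log2 signal 8.74, 5.82 and 8.08) and hippocampus lowest (5.64, 4.67 and 5.38).

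**Figure D4:**
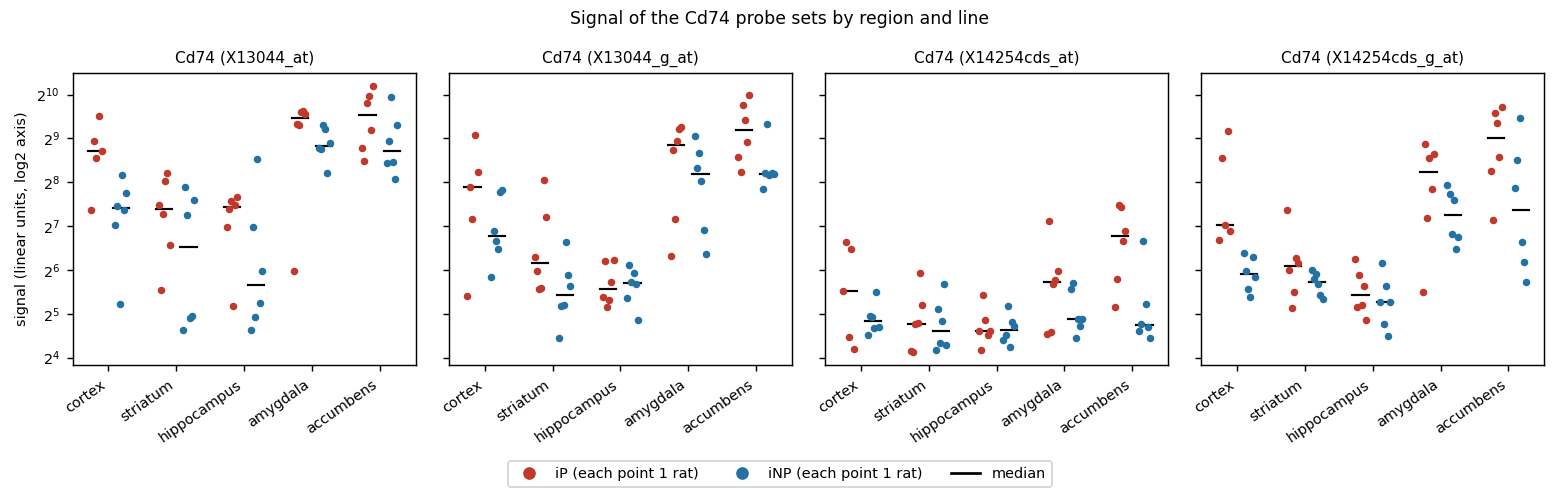
Signal of the 4 Cd74 probe sets in each region on a log2 axis. Each point is 1 rat, iP left of iNP, and the line is the median (n = 6 rats per line, 5 for iP in cortex). The probe sets are high in accumbens and low in hippocampus, except X14254cds_at in iNP rats, whose medians lie between 24.4 and 29.4 in all regions. In X13044_at, 1 amygdala point of iP (62.6) lies far below the other 5.

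Genes around the members were then examined. In GRCr8 gene order, the stretch of the complex from RT1-CE16 to Psmb9 holds 138 genes, of which 21 had 30 tested probe sets. Of these 30, 2 were called higher and 3 lower in iP rats, against 1.2% higher and 1.45% lower of all tested probe sets, with a median difference of 0.02 beside -0.01 over all tested probe sets. With the members left out, 25 probe sets remained, 1 called in each direction, beside the same 2.65% over all tested probe sets. RT1-A has no probe set in this stretch, which ends before RT1-A1 and Vps52 (positions 161 and 162). Vps52 was called lower in iP rats (-0.51, limma adjusted p = 0.000719) and is not in these counts. RT1-Bb, a class II beta chain, was lower by X56596_at (-0.75 ± 0.09, limma adjusted p = 9.9e-05). A second RT1-Bb probe set, M36151cds_s_at, gave 0.08 ± 0.12 (limma adjusted p = 0.842), so its 2 tested probe sets disagree. The gene has 3 dim probe sets that were not tested. In the fit without the filter these gave -0.10 ± 0.05 for M15358cds_at and 1.06 ± 0.20 for U65217_i_at (limma adjusted p = 0.541 and 0.0127), and M36151cds_i_at was at the floor in both lines. Thus U65217_i_at was higher in iP rats where X56596_at was lower, but it lay near the floor. Its mean log2 signal was 5.33 in iP rats and 4.27 in iNP rats, where a signal at the floor reads 4. X56596_at had 7.96 in iP rats and 8.705 in iNP rats. Ddx39b, an RNA helicase, was higher by 1 of its 4 probe sets (0.45 ± 0.10, limma adjusted p = 0.0219) and lay between -0.05 and 0.08 in the other 3. That call was lost without iP animals 4 and 5 and without iNP animals 11 and 12, each left out alone (adjusted p between 0.0559 and 0.0656), and in the joint fit (adjusted p = 0.124). Tap2, Psmb8, Tap1 and Psmb9 are neighbours in this order (positions 135 to 138), and of them Psmb8 was called.

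**Figure D5:**
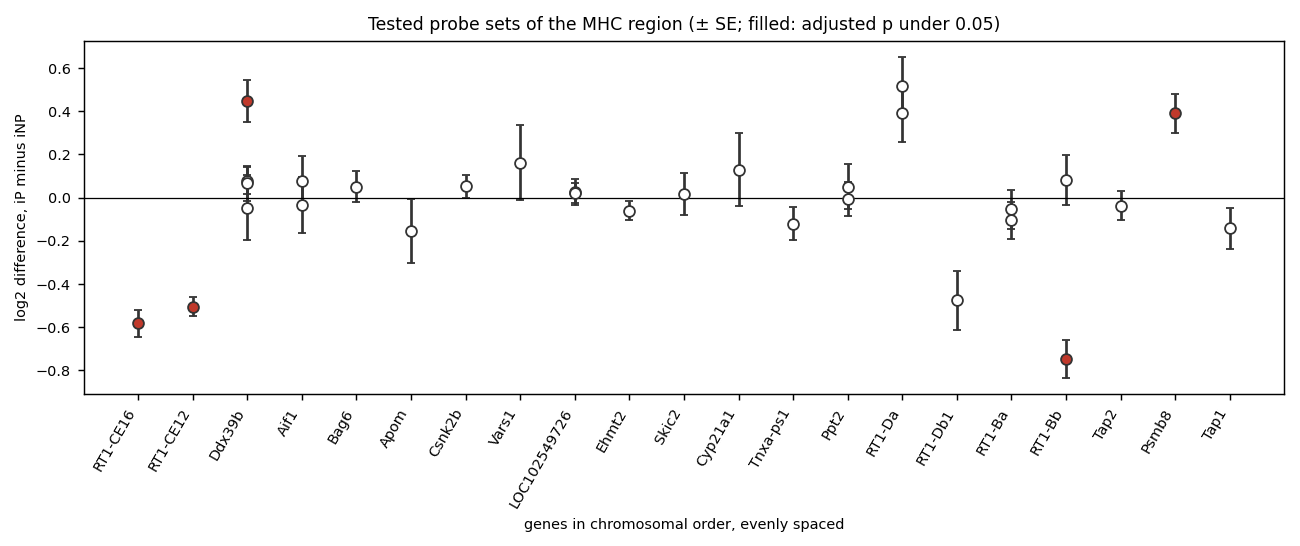
Log2 difference over all regions, iP minus iNP, of 30 tested probe sets of 21 genes of the MHC region (points, with SE bars). They are those from RT1-CE16 to Psmb9, in GRCr8 gene order and evenly spaced, and do not include RT1-A. Filled points have an adjusted p under 0.05. Filled points are RT1-CE16, RT1-CE12 and 1 RT1-Bb probe set below 0, and 1 Ddx39b probe set and Psmb8 above 0.

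Other genes of the pathway were counted from lists that were chosen with earlier results of these data known. Each gene was counted by its brightest tested probe set. At the share of 2.65% called over all tested probe sets, lists this short can hold 0 calls, so these counts do not set them apart. Of 3 tested class I heavy chains outside the set, none was called, with RT1-M3-1 at -0.08 ± 0.06, RT1-M5 at -0.11 ± 0.06 and RT1-S3 at -0.23 ± 0.07 (limma adjusted p = 0.126), whose lines overlapped. Of 3 class I-like genes none was called, among them the neonatal Fc receptor gene Fcgrt (-0.03 ± 0.07) and the iron regulator Hfe (-0.20 ± 0.09). Of 9 genes for peptide trimming and loading none was called, including the chaperones Canx (0.12 ± 0.06) and Calr (-0.00079 ± 0.04). The proteasome activator genes Psme1 (-0.01 ± 0.11) and Psme2 (-0.09 ± 0.06) were not called, nor was Psme4. None of 11 constitutive proteasome core genes was called, with Psmb4 at 0.03 ± 0.06 and Psmb5, the subunit that Psmb8 replaces, at 0.05 ± 0.04. Their median was 0.04. None of 13 interferon signalling and interferon-induced genes was called either, with a median of -0.05. Examples are Ifitm3 (0.10 ± 0.09), an antiviral membrane protein, and Irf3 (-0.05 ± 0.11), a transcription factor of the interferon response. The class II list had 0 of 9 called, with the lysosomal protease gene Ctss at -0.13 ± 0.04 and the chain RT1-DOa at -0.07 ± 0.07. That count rests on the choice of probe set, since RT1-Bb was counted by M36151cds_s_at and not by the dimmer X56596_at, which was called lower.

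Markers of other cell types were counted in the same way and read beside the class I result. The share called over all tested probe sets was 2.65%, and each marker list is short. Of 8 tested microglia and macrophage genes 1 was higher in iP rats (Lyz2, lysozyme, 0.54 ± 0.06, limma adjusted p = 5.78e-05) and 1 lower (P2ry12, a microglial ADP receptor, -0.77 ± 0.12, adjusted p = 0.000899). Their summed signal over 11 genes was 12640 to 14540 in iP rats, against 13380 to 14160 in iNP rats, which overlap. Of 7 endothelial and mural genes 1 was lower (Pecam1, an endothelial adhesion molecule, -0.47 ± 0.07, limma adjusted p = 0.00155). The summed signal of 9 such genes was 6406 to 7217 in iP rats, against 6552 to 7987 in iNP rats. Of 4 red blood cell genes 1 was lower (Hbb-b1, a beta globin, -0.38 ± 0.09, limma adjusted p = 0.0406). That call was lost in 8 of 12 fits without 1 rat, namely iP animals 2, 3, 4 and 5 and iNP animals 7, 8, 11 and 12 (adjusted p up to 0.106), and without the filter (0.0775) or the variance trend (0.0646). The summed red blood cell signal was 28900 to 35400 in iP rats, against 35540 to 51920 in iNP rats, with no overlap. Sums of linear signal follow their brightest genes, Ctss for microglia and macrophages (mean log2 signal 12.92) and Hbb, a globin, for red blood cells (14.53). Hbb by itself was not called, and its lines overlapped (-0.30 ± 0.09, limma adjusted p = 0.114). Of 4 leukocyte genes none was called (Ptprc, the pan-leukocyte phosphatase, 0.19 ± 0.08, and Cd8b, a T cell co-receptor chain, 0.09 ± 0.08), and 13 such genes summed to 2130 to 2763 in iP rats, against 2075 to 2363 in iNP rats. None of the 8 astrocyte, 6 neuron and 6 oligodendrocyte genes tested was called. The part of the cell and blood markers in the class I difference was not tested.

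The probe sets most like RT1-A and B2m were named as a description, from Pearson correlations over the 59 arrays after each region's mean was taken off. Only tested probe sets with 1 symbol were compared. The arrays share rats and lines, so a line difference alone raises r, and r with line means also taken off is given second. For RT1-A the most alike were RT1-CE12 (0.894, then 0.533), the glutathione transferase gene Gsta4 (0.838, then -0.11), the fibronectin gene Fn1 (0.83, then 0.313), Tmtc3 (0.816, then 0.148) and the tubulin gene Tuba1b (0.809, then 0.223). For B2m they were Fn1 (0.851, then 0.59), RT1-CE12 (0.848, then 0.561), Gsta4 (0.782, then 0.273), Tuba1b (0.766, then 0.29) and Gpalpp1 (0.738, then 0.352). Among the members, RT1-A and RT1-CE16 had 0.713, then 0.223, and RT1-CE16 and B2m had 0.479, then -0.193. Tap1 and Tap2 kept theirs (0.451, then 0.437), as did Psmb8 and Cd74 (0.484, then 0.407).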

How the data were processed

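Total RNA of 59 samples, each 1 brain region of 1 rat, was labelled and hybridised separately, per the labels' protocols. The authors deposited 1 linear intensity value for each probe set and array, computed by a program not given in the sources used here. Each array's trimmed mean (2% left out at each end) was 1000 on all 59 arrays, so no scaling was added. Sample titles and the genotype label gave line and region; the source name, which reads iNP throughout, was disregarded.

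Signals under 16 were set to 16 and log2 transformed. Of 8799 probe sets, 59 controls and the dimmest 40% of the other 8740 by mean were left out, so that 5244 were tested. Of the 8740, 7006 have 1 symbol, 308 several and 1426 none in the array annotation. limma 3.58.1 in R 4.3.3 was used with an intensity trend, two-sided tests and Benjamini-Hochberg adjustment at 0.05. The line difference over all regions used 1 mean per rat after each region's level was taken off. Each region was also fitted alone. The line by region F test and the region contrasts had the animal as a block, because the titles number the same animals in every region. Fits were tested on simulated data. Promoter windows and gene order are RefSeq's, build GRCr8, read with Python 3.11.15 and pandas 2.3.3.

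Every probe set with a member as its only symbol was named. From each list up to 4 called genes were named, or at most the 2 with the highest signal where none was called. Up to 6 called genes of the MHC region from RT1-CE16 to Psmb9 were named. So were the 5 tested probe sets with 1 symbol most correlated with RT1-A and with B2m. Other genes or probe sets in the text were chosen after their values were seen. The members and lists were chosen with earlier results of these data known. Alternatives were quantile normalization, other filters and floors, no variance trend, array weights, 1 fit of all arrays, leaving out arrays or rats, and no block.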

Additional observations from a re-analysis of the deposited data

Results flagged for a closer look

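In 80 groups of arrays (8 tested members, 5 regions, 2 lines), the array farthest from its group was compared with Dixon's critical value, which chance passes in about 1 of 20 groups. In 4 groups, on 4 different arrays, 1 value lay that far out. RT1-CE12 in hippocampus of iNP animal 10 was high, at a log2 signal of 11.99 where the other 5 iNP rats had 11.41 to 11.63. B2m in cortex of iNP animal 11 was low, at 11.98 against 12.25 to 12.32 in the other iNP rats. Cd74 in hippocampus of iP animal 4 was low, at 5.17 against 6.97 to 7.67 in the other iP rats. Cd74 in amygdala of iP animal 1 was low, at 5.97 against 9.30 to 9.62 in the other iP rats. That last array had stood apart in earlier results of these data, and its Psmb8 signal was also the lowest of its group, 303 against 423 to 584.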

How the results depend on the processing

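The count of members called over all regions was 5, and lay between 4 and 6 under every alternative run and when each rat was left out in turn. With the dimmest 60% left out it was 4, since fewer probe sets were tested. The interaction count stayed at 0 in the 6 alternatives run for it. In cortex the count of 0 became 2 with array weights and 3 in a joint fit of all arrays (random replicate block by animal), and was 0 when any rat was left out. Over all probe sets the cortex calls were 12, against 24 without the 2 arrays that stood apart, 37 with array weights and 56 in the joint fit. In accumbens the count of 2 became 1 without a variance trend, 4 with array weights and 4 in the joint fit with the replicate block, and ranged from 1 to 3 without single rats. Over all probe sets the accumbens calls were 30, against 51 in the joint fit and 19 with the dimmest 60% left out. The range without single rats was 3 to 4 in striatum, 2 to 3 in hippocampus and 2 to 3 in amygdala. Without a variance trend RT1-A in accumbens (adjusted p = 0.08) and B2m in hippocampus (0.0546) were not called. For the regions against each other, the count of 13 became 23 without a filter, where the dim Cd74 and Psmb9 probe sets were counted too, and 8 with the dimmest 60% left out, where Psmb8 and Cd74 were not tested. It was 13 without the replicate block. Among single named probe sets, 1270 values under the alternatives stayed called or stayed not called, 42 lost a call, 19 gained one and none changed direction while called. Direction was not compared where neither fit gave a call, and some such values changed sign. Tap1 in cortex, for example, went from 0.02 to -0.03 with array weights. A block for animals 1, 2, 7 and 8, chosen after seeing the data, changed no call in 16 values. The cause of these changes was not tested except where fewer probe sets explain them. No setting replaces the missing sequence of the probes: with 6 rats a line, the standard errors of the tested members over all regions ran up to 0.274 on the log2 scale (Cd74).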

Other observations

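Likeness was sought here only among the tested probe sets with 1 symbol. Of these, that of Vps52, a vesicle trafficking gene, was most like AF074609mRNA_f_at over the 59 arrays (r = 0.667, then 0.345 with line means also taken off). Vps52 follows RT1-A1 directly in the GRCr8 gene order (positions 162 and 161 counted from RT1-CE16) and was lower in iP rats (-0.51 on the log2 scale, limma adjusted p = 0.000719). Psmb8 was most like the class II chain RT1-Da (r = 0.675, then 0.503, and 0.605, then 0.448, for its 2 probe sets). RT1-Da lay at 0.52 and 0.39 in iP rats and was not called (limma adjusted p = 0.0695 and 0.202). RT1-Db1, the partner chain, lay at -0.47 (limma adjusted p = 0.101). Cd74 was most like A2m, a protease inhibitor (r = 0.637, then 0.617), Dcn, the matrix proteoglycan decorin (0.629, then 0.565), and Vim, the filament protein vimentin (0.619, then 0.604). These genes were chosen after their values were seen, and the correlations are descriptions over arrays that share rats.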
